A study of Mus musculus with 9 samples.

Results

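The insulin-like growth factor (IGF) family was followed here through 9 genes measured in single cells of the mouse adult neurogenic niche. They comprise the ligands Igf1 and Igf2, the receptor Igf1r and the binding proteins Igfbp2, Igfbp3, Igfbp4, Igfbp5, Igfbp7 and Igfbpl1. The genes were chosen by family membership, they are 9 of the 32287 genes in the count matrix, and each was found by its gene identifier. IGF ligands activate Igf1r, a receptor tyrosine kinase that signals through insulin receptor substrates and the lipid kinase branch to Akt. The classical binding proteins hold the ligands in the extracellular space and can limit or deliver them, whereas Igfbp7 and Igfbpl1 are related secreted proteins whose affinity for IGFs is low or less well established. In the neurogenic niche, IGF signalling is known to affect the growth of neural progenitors and the survival of newborn neurons.

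The cells came from male TiCY mice on a C57BL/6 background. In TiCY mice a tamoxifen-inducible Cre, driven by the Tlx (Nr2e1) promoter that is active in neural stem cells (NSCs), switches on the reporter eYFP from the Rosa26 locus. The strain name also carries the Fas allele tm1Cgn, shared by all groups. Wild-type (WT) mice were compared with IFNAGR KO mice (KO), in which the interferon receptor genes Ifnar1 and Ifngr1 are deleted. WT young mice were 16 weeks old (tamoxifen at 10 weeks, chase of 6 weeks), WT old mice 80 weeks (71 and 9 weeks), KO young mice 16 weeks (7 and 9 weeks) and KO old mice 92 to 105 weeks (85 and 98 weeks, chase of 9 weeks). The question the design puts to the family is therefore whether its levels differ with age, with loss of the interferon receptors, and between tissues. Cells were sorted from the ventricular-subventricular zone (vSVZ; eYFP+ cells and GLAST+ cells) and from the rest of the brain (RoB), which held the olfactory bulb with the migratory stream and the striatum (eYFP+ cells and eYFP-negative, PSA-NCAM low cells), after exclusion of CD45+, Ter119+ and O4+ cells. Each group held 2 mice run in 1 reaction, with antibody hashtags marking mouse and tissue. A difference between groups and a difference between reactions cannot be told apart.

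Where 4 values stand in a row below, they belong to young and then old WT mice, followed by young and then old KO mice. The filters and removal of predicted doublets left 5818, 2394, 6462 and 3377 cells, with median depths of 5067 to 7437 unique molecular identifiers (UMIs) per cell before doublets were removed. Of these cells, 31.9% received a hashtag. The 28 clusters were named from marker genes, 23 of them fell into 10 classes, and the suffix "-like" marks that a class rests on these markers alone. Levels are given as CPM, the UMIs of a gene scaled to the summed UMIs of the cells in question, and are compared for 1 gene between cells, not between genes. Ifngr1 was at 46.8, 85.5, 2.86 and 4.40 CPM and Ifnar1 at 21.3, 28.5, 8.07 and 6.57 CPM over all cells, so that transcripts of both deleted receptors were lower in both KO groups. A level in a class refers to each of the 4 libraries, which are the 4 groups, and only classes with at least 20 cells in a library are used for ranks. The same quantity in near-empty barcodes (5 to under 500 UMIs) is given where it matters, because free RNA of lysed cells is counted in every droplet.

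The 2 ligands had narrow sources. Igf1 (ENSMUSG00000020053, chromosome 10, 87858265 to 87937042 in GRCm38) was measured in olfactory ensheathing glia (OEG)-like cells, the glia that wrap olfactory axons, at 482, 506, 714 and 539 CPM. The 95% exact Poisson interval of counting error was 443 to 523 CPM in the WT young library and 689 to 740 CPM in the KO young library. Variation between mice is not in these intervals, and the difference between these groups over mice did not pass, as given below. No other class exceeded 29.8 CPM in any library. OEG-like cells were 11.2% of the cells and gave 97.1% of the 9744 Igf1 UMIs in cells. Microglia-like cells, a cell type known to make IGF-1 in some states, ranked second with a median of 9.27 CPM (5 or fewer UMIs per library), which in every library was below the near-empty level of 26.3 to 130 CPM. OEG-like cells were in turn a RoB population, as 98.4% of those with a hashtag carried a RoB hashtag.

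Igf2 (ENSMUSG00000048583, chromosome 7, 142650766 to 142666816) was close to absent from every named class, with a highest class level of 0.805 CPM. Of 217 Igf2 UMIs, 87.1% lay in the unnamed clusters. All of those came from a cluster of 38 cells led by Vtn, Dcn, Ptgds and Rgs5, genes of perivascular fibroblasts and mural cells, with 189 Igf2 UMIs or 862 CPM over all libraries. Its level ran from 252 CPM in 5 WT young cells to 3706 CPM in 3 WT old cells, which is too few cells to compare groups. The cluster had fewer than 50 cells and was left unnamed. It also held Igfbp2 at 1290 CPM and Igfbp7 at 2516 CPM.

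**Figure D1:**
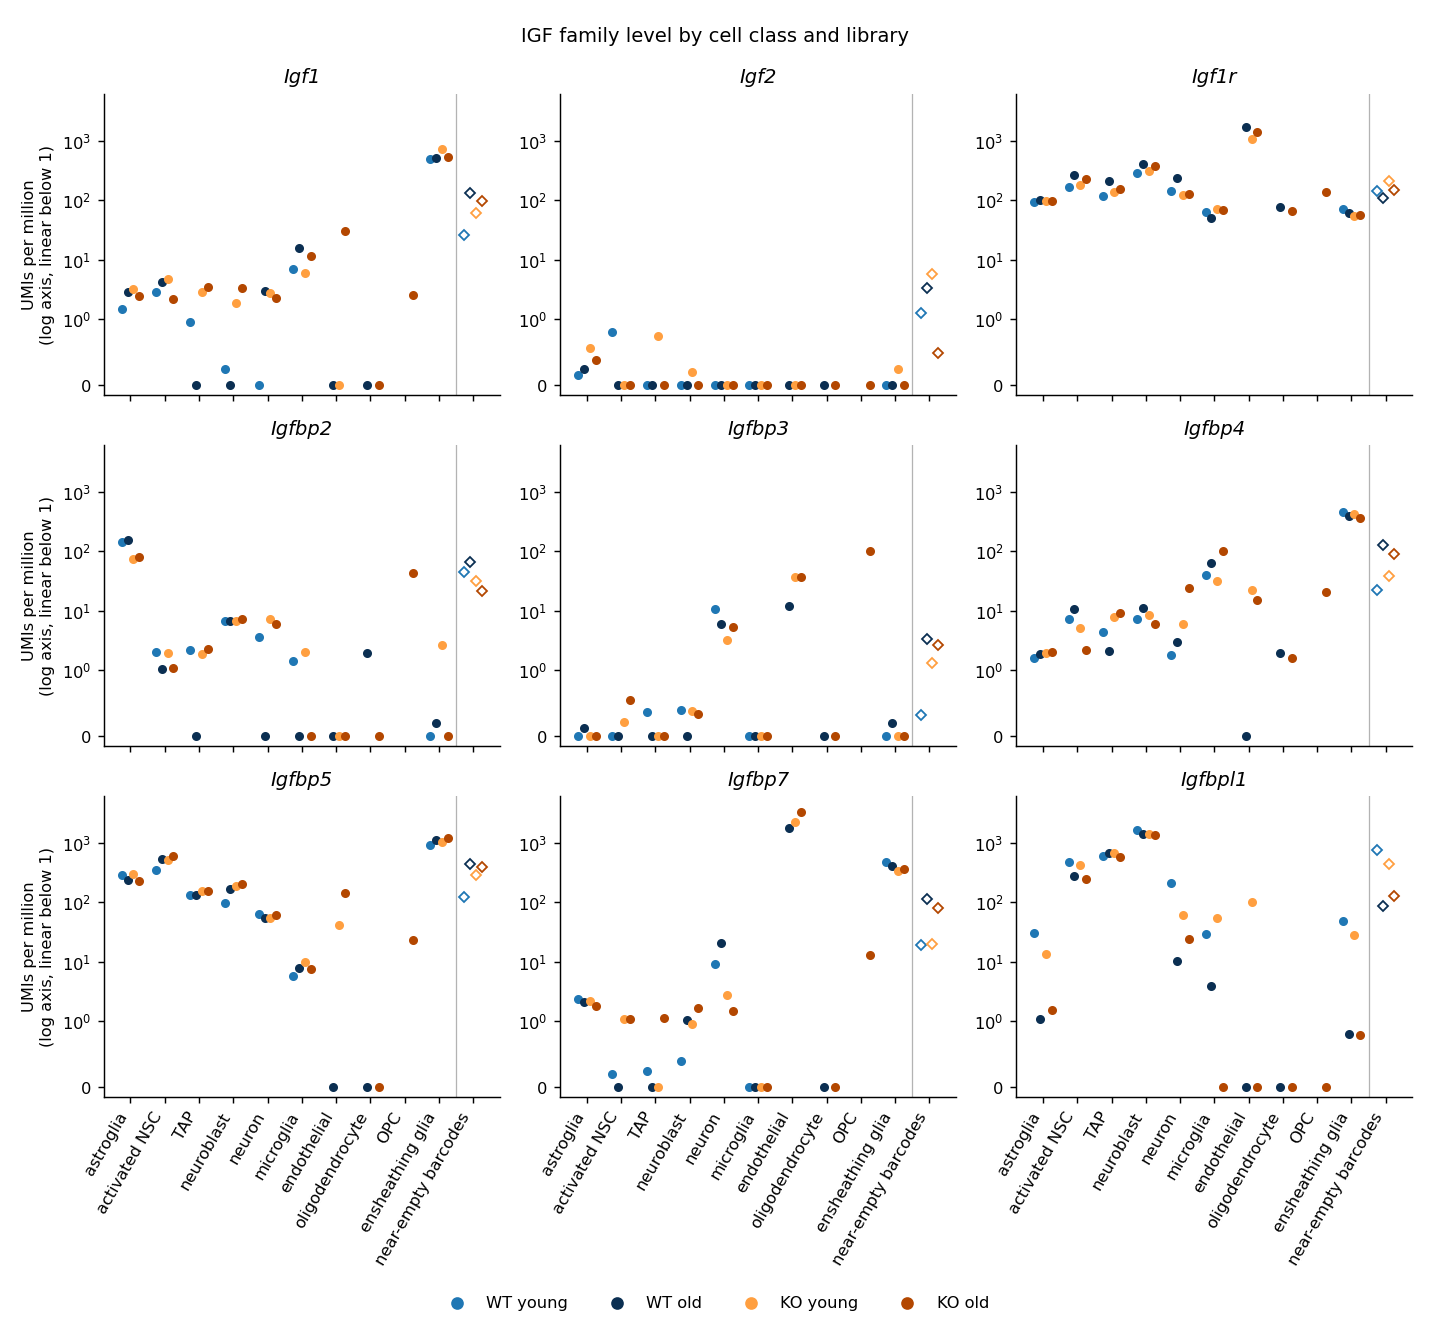
Level of the 9 genes in CPM (log axis, linear below 1) in 10 cell classes; filled circles are the 4 libraries, with classes under 20 cells in a library left out, and open diamonds are the near-empty barcodes of each library. Igf1 stood at 482 to 714 in ensheathing glia-like cells and at no more than 29.8 elsewhere, and Igfbp7 stood at 1768 to 3217 in endothelial-like cells.

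Igf1r (ENSMUSG00000005533, chromosome 7, 67952827 to 68233668), the receptor through which both ligands signal, was detected in every class. Endothelial-like cells led, with 1064 to 1721 CPM in the libraries with enough cells, and the 14 WT young cells of this class gave 742 CPM. Neuroblast-like cells followed with 290, 402, 305 and 370 CPM, a range that did not overlap with the class above. Activated NSC-like cells stood at 164, 267, 179 and 228 CPM, below the neuroblast-like range without overlap, and overlapped with transit-amplifying progenitor (TAP)-like cells at 117 to 213 CPM. Astroglia-like cells (quiescent NSCs and astrocytes) lay between 94.4 and 101 CPM and microglia-like and OEG-like cells between 50.9 and 72.0 CPM. Those last 3 classes were at or below the near-empty level of 106 to 209 CPM in every library. OPC-like and oligodendrocyte-like cells were also below it in the libraries with enough cells. TAP-like and neuron-like cells exceeded it in 2 of 4 libraries each, and activated NSC-like cells in 3 of 4. Neuroblast-like cells gave 48.5% of all Igf1r UMIs in cells. Within them Igf1r was lowest in the cluster led by St18 and Ccnd2 (202 to 306 CPM over libraries) and highest in the cluster led by Foxp2 (374 to 490 CPM).

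Igf1 and Igf1r thus had different leading classes. Across the 34 combinations of class and library with at least 20 cells, the levels of Igf1 and Igf1r (log2 of CPM plus 5) correlated with r = -0.38, a description in which combinations of the same library share depth and free RNA. The gene most like Igf1 across these combinations was Slc43a3 (r = 0.98), followed by Olfr1271 (r = 0.97) and Zpld1 (r = 0.97). Igf1r was followed most closely by Fgd5 (r = 0.89), Kif26a (r = 0.88) and Impdh1 (r = 0.88).

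OEG-like cells also led for Igfbp4 and Igfbp5. Igfbp4 (ENSMUSG00000017493, chromosome 11, 99041244 to 99054392), a binding protein that is cut by the protease Pappa, stood in OEG-like cells at 454, 396, 414 and 355 CPM. Microglia-like cells came next at 31.8 to 99.6 CPM, without overlap and on 16 to 28 UMIs per library, and stayed below the near-empty level in WT old and KO young. Of the 7170 Igfbp4 UMIs, 90.2% were in OEG-like cells. Its closest genes across classes and libraries were Postn (r = 0.95), Thbs1 (r = 0.93) and the ligand Igf1 itself (r = 0.90).

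Igfbp5 (ENSMUSG00000026185, chromosome 1, 72857932 to 72874884), a binding protein that also attaches to extracellular matrix, was found above the near-empty level of every library in OEG-like and activated NSC-like cells. It was at 930, 1113, 1042 and 1185 CPM in OEG-like cells. Activated NSC-like cells had 342, 523, 515 and 586 CPM and astroglia-like cells 290, 232, 297 and 226 CPM, so the top 3 classes did not overlap. Microglia-like cells had 5.64 to 9.95 CPM, beside a near-empty level of 124, 438, 288 and 388 CPM. Fstl1 (r = 0.91), Epb41l5 (r = 0.91) and Efna5 (r = 0.90) were nearest to it across classes.

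Igfbp7 (ENSMUSG00000036256, chromosome 5, 77349240 to 77408041), a secreted protein of vessel walls, was at 1768 to 3217 CPM in endothelial-like cells of the 3 libraries with enough of them, and at 1515 CPM in the 14 WT young cells. OEG-like cells followed at 477, 412, 335 and 359 CPM. No other class with 20 cells exceeded 20.8 CPM. Because OEG-like cells were far more numerous, they gave 76.6% of the 8185 Igfbp7 UMIs and endothelial-like cells 14.4%. The endothelial junction gene Cldn5 (r = 0.98), Adgra2 (r = 0.98) and Hspg2 (r = 0.98) had the most similar pattern.

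Igfbp3 (ENSMUSG00000020427, chromosome 11, 7206086 to 7213923), the main carrier of IGFs in blood, was rare here with 145 UMIs in all cells. Oligodendrocyte precursor cell (OPC)-like cells held 59.3% of them, at 100 CPM (95% Poisson interval 71.3 to 137) in the 39 KO old cells, the one library with enough cells. The 11 to 17 OPC-like cells of the other libraries gave 93.9 to 156 CPM, with intervals that all overlapped. Endothelial-like cells had 11.9 to 37.2 CPM on 1 to 8 UMIs. Neuron-like cells had 3.16 to 10.8 CPM on 4 to 7 UMIs, above the near-empty level in all 4 libraries, and gave 16.6% of the UMIs. The genes nearest to Igfbp3 were Msrb3, Irx3 and Ebf1 (r = 0.89, 0.89 and 0.88).

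The OEG-like class consisted of 2 clusters. Cluster 5 (1066 cells) had Npy and Il13ra2 among its leading genes, and cluster 8 (960 cells) had Vtn, Clca3a1 and Cldn5. The IGF genes took no part in the clustering, but every gene of the clustered cells counts as used, so the contrast is a description. Igf1 was higher in cluster 5, at 638, 717, 936 and 723 CPM, against 317, 289, 302 and 248 CPM in cluster 8. The binding proteins went the other way. Igfbp5 was at 364, 485, 522 and 484 CPM in cluster 5 and at 1528, 1756, 2010 and 2294 CPM in cluster 8. Igfbp7 was at 27.4 to 36.6 CPM in cluster 5 and at 802 to 950 CPM in cluster 8. Igfbp4 was at 281 to 324 CPM in cluster 5 and at 471 to 611 CPM in cluster 8. In every library, then, the cluster with more ligand had less of these 3 binding proteins, and the 4-library ranges of the 2 clusters did not overlap for any of the 4 genes.

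**Figure D2:**
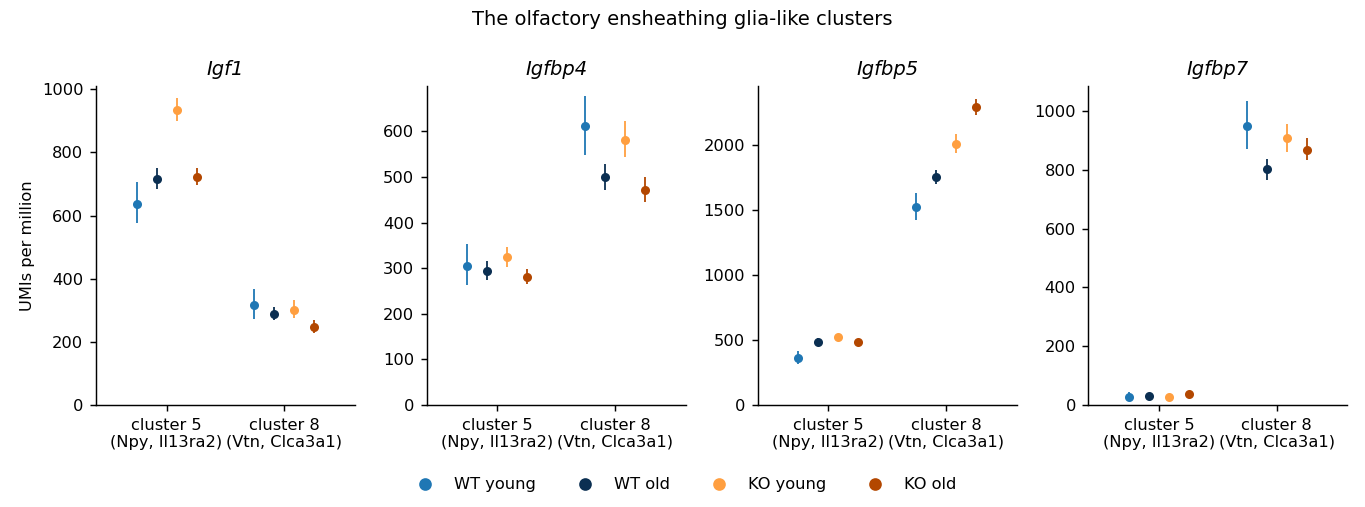
CPM of Igf1, Igfbp4, Igfbp5 and Igfbp7 in the 2 ensheathing glia-like clusters; each point is 1 library and each bar its 95% Poisson interval (counting error). Igf1 ran from 638 to 936 in cluster 5 and from 248 to 317 in cluster 8, while Igfbp5 ran from 364 to 522 and from 1528 to 2294.

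Along the neurogenic lineage, Igfbp5 and Igfbpl1 marked different stages. Igfbp5 was at 678, 1004, 820 and 885 CPM in cluster 7, the astroglia-like cluster led by Crym, Prss56, Thbs4 and Ecel1. An eYFP UMI was found in 50.1% of its cells at a median depth of 6451 UMIs. In microglia-like cells, which the reporter should not mark, the share was 4.88% at 5242 UMIs. It was at 559, 692, 800 and 766 CPM in cluster 12 of the activated NSC-like class, with Egfr among its leading genes. In cluster 11 of the same class, led by the replication genes Hells and Mcm3, it was at 232 to 308 CPM. The name of cluster 11 is less sure, as neuroblast markers scored second and Dlx2 was among its leading genes. At Leiden resolution 2 and with doublets kept, a cluster led by Hells and Rrm2 scored highest for neuroblasts and stayed unnamed. TAP-like cells, the dividing progenitors, had 132 to 155 CPM, above the near-empty level in WT young only. The neuroblast-like class as a whole was below the near-empty level in every library. Within it, the St18 cluster had 201 to 441 CPM and the Foxp2 cluster 20.2 to 87.9 CPM.

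Igfbpl1 (ENSMUSG00000035551, chromosome 4, 45809468 to 45826923), known for its expression in developing neurons, was instead low in cluster 12 and higher in the later stages. It was at 37.9, 0, 27.1 and 3.34 CPM in cluster 12, and at 670, 759, 704 and 696 CPM in cluster 11. TAP-like cells had 601, 672, 665 and 566 CPM and neuroblast-like cells 1625, 1407, 1420 and 1338 CPM. The near-empty level was 747, 85.2, 433 and 127 CPM. Cluster 12 lay below it in every library, cluster 11 and TAP-like cells in WT young only, and neuroblast-like cells in none. The neuroblast-like cluster led by Sp8, Synpr and Parm1 reached 1952 to 2307 CPM. An unnamed cluster of 23 cells led by Neurog2, Slc17a6, Tbr1 and Eomes, genes of glutamatergic precursors, gave 4656 CPM over both young libraries. Neuroblast-like cells gave 75.2% of the 65856 Igfbpl1 UMIs in cells. Elavl2 (r = 0.97), Cd24a (r = 0.97) and Dlx2 (r = 0.96) followed the same pattern.

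**Figure D3:**
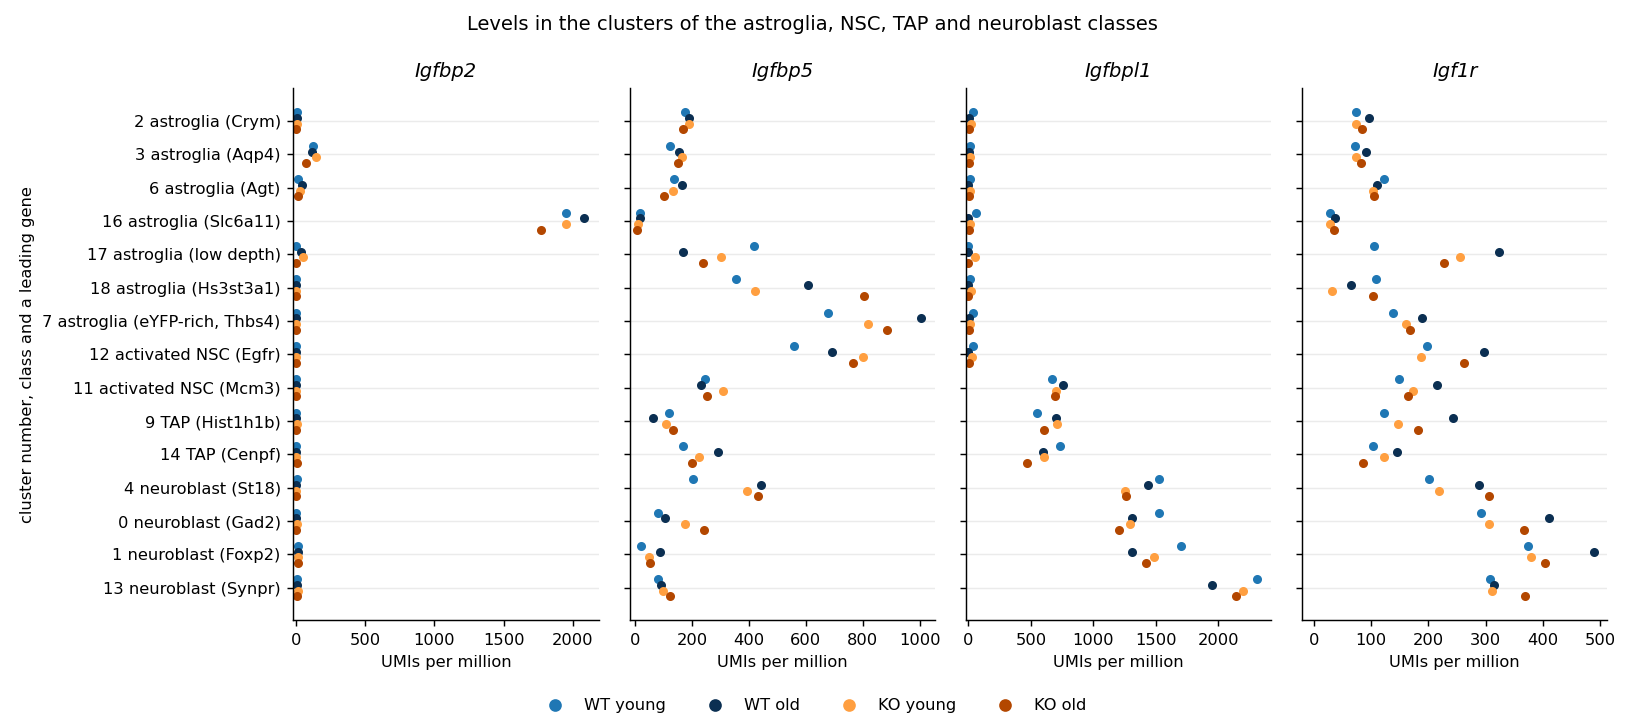
CPM of Igfbp2, Igfbp5, Igfbpl1 and Igf1r in the clusters of the astroglia, activated NSC, TAP and neuroblast-like classes, labelled with a leading gene; each point is 1 library. Igfbp2 reached 1772 to 2082 in cluster 16, and Igfbpl1 went from at most 37.9 in cluster 12 to 670 to 759 in cluster 11.

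Igfbp2 (ENSMUSG00000039323, chromosome 1, 72824503 to 72852474), a binding protein known from astrocytes and the developing brain, was highest in a small cluster of mostly RoB astroglia-like cells. In astroglia-like cells as a class it was at 141, 155, 73.6 and 78.2 CPM. OPC-like cells were next at 43.7 CPM in KO old, and their 11 WT young cells gave 182 CPM. Cluster 16 of this class, 173 cells with Slc6a11 and Pla2g7 among its leading genes, held it at 1954, 2082, 1954 and 1772 CPM in the 4 libraries. Of the cells of cluster 16 with a hashtag, 1.85% were from the vSVZ. These cells held 2501 of the 4908 Igfbp2 UMIs. Cluster 3, with 67.9% vSVZ cells among those with a hashtag, held 1452 UMIs at 75.0 to 145 CPM, and the eYFP-rich cluster 7 had at most 1.96 CPM. Cluster 16 took up 64 of 1265, 47 of 1107, 22 of 2097 and 40 of 1484 astroglia-like cells. Within cluster 16 the WT young and KO young levels lay inside each other's 95% Poisson intervals, whereas WT old (1943 to 2229) lay above KO old (1627 to 1927) without overlap of the intervals. These intervals cover counting error over the pooled cells of a library. Variation between mice or reactions is not in them, so they do not test a difference between genotypes. The class level was higher in both WT libraries. Atp13a4 (r = 0.90) and the predicted genes Gm5083 (r = 0.94) and Gm45847 (r = 0.90) were most similar to it across classes.

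Tissues were compared within mice, between vSVZ and RoB astroglia-like cells of the same animal, in an edgeR quasi-likelihood fit over all genes with the mouse as a block. The sort gates also differed between the tissues, as given above. A difference between tissues and a difference between gates therefore cannot be told apart. All 3 members that could be tested were called at a Benjamini-Hochberg adjusted p below 0.05, where 12.9% of the 8032 genes tested were called. Igfbp2 was at 3.70 and 1.4 CPM in the vSVZ of the young and 10.9 and 4.69 in that of the old WT mice. In KO mice it was at 11.4 and 9.03 CPM when young and 1.25 and 8.72 when old. In the RoB of the same mice it was at 628 and 632, 536 and 277, 575 and 128, and 346 and 283 CPM. It was lower in the vSVZ in 8 of 8 mice, with a log2 difference (vSVZ minus RoB) of -5.89 (SE 0.18, adjusted p = 2.14e-25). The vSVZ levels all lay below the near-empty level of 21.4 to 66.5 CPM. Igfbp2 passed the filter on low counts through the RoB sums, where it was high, so this call is a description. Without cluster 16 the log2 difference was -3.87, still past the threshold.

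Igfbp5 was higher in the vSVZ in 8 of 8 mice, by 0.83 on the log2 scale (SE 0.10, adjusted p = 3.9e-08). The vSVZ levels ran from 263 to 451 CPM and the RoB levels from 138 to 249 CPM, with no overlap. Without the eYFP-rich cluster 7 the log2 difference fell to 0.17 (adjusted p = 0.31). That cluster made up 9.38 to 49.6% of the vSVZ cells of a mouse and 0 to 25.4% of its RoB cells. Igf1r was higher in the vSVZ in 8 of 8 mice by 0.75 (SE 0.10, adjusted p = 7.91e-07), at 101 to 124 CPM against 37.8 to 85.9 CPM. The near-empty level of Igf1r was 106 to 209 CPM. Both tissues share a library and with it its free RNA. Of the other IGF pathway genes, 19 could be tested here. Foxo1, a transcription factor restrained by Akt, was higher in the vSVZ by 0.68 (SE 0.10), and Htra1, a secreted protease able to cleave binding proteins, was lower by a log2 difference of -0.30 (SE 0.06, adjusted p = 0.000604). The other 17 did not pass.

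**Figure D4:**
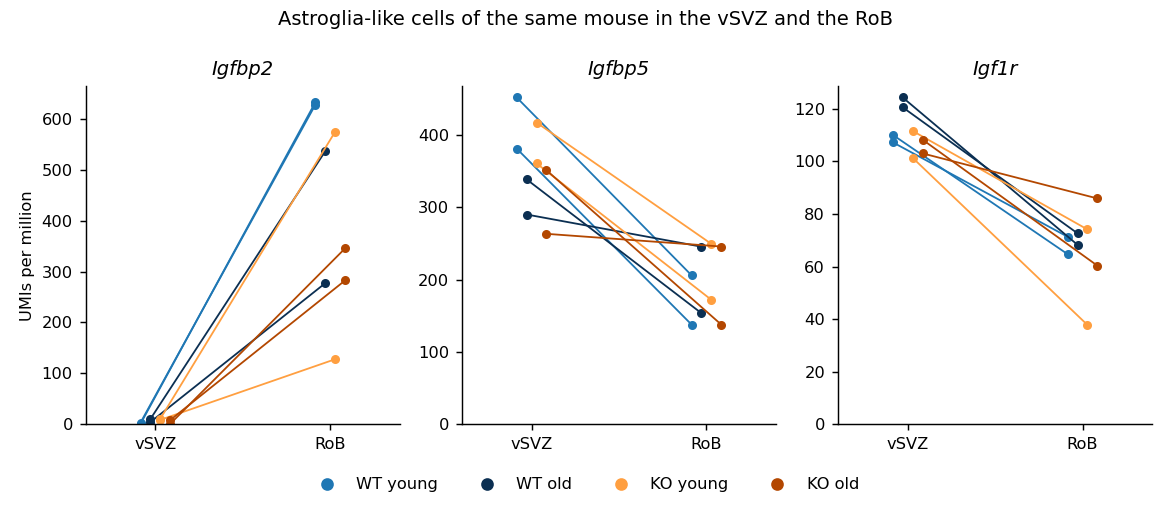
CPM of Igfbp2, Igfbp5 and Igf1r in astroglia-like cells of the vSVZ and the RoB; each line joins the tissues of 1 mouse, 2 mice per group. Igfbp2 was lower and Igfbp5 and Igf1r were higher in the vSVZ in 8 of 8 mice.

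Age and genotype were compared over mice on UMIs summed per mouse and class, where each group held 2 mice with at least 20 hashtagged cells. vSVZ and RoB astroglia-like, neuroblast-like and OEG-like cells allowed all comparisons, activated NSC-like cells age in KO and genotype in young mice, and microglia-like cells genotype in young mice. With 2 mice per group, an absence of a call says little. Between old and young WT mice, 5 of 17 tests of a member in a class passed, with 1 rise and 4 falls. Between old and young KO mice, 3 of 20 passed, with 1 rise and 2 falls. Apart from Igfbp5 in vSVZ astroglia-like cells of WT mice, all these falls were of Igfbpl1. In those cells Igfbpl1 passed the filter on low counts only through the young mice, so the counts are a description. The shares of all genes called with age in WT were 15.8% in vSVZ astroglia-like, 1.39% in RoB astroglia-like, 3.62% in neuroblast-like and 2.02% in OEG-like cells. With age in KO they were 4.7%, 0.153%, 0.526% and 0.278% in the same order, and 0.553% in activated NSC-like cells.

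Igfbp5 fell with age in vSVZ astroglia-like cells of WT mice. It was at 381 and 451 CPM in young and 338 and 290 CPM in old WT mice. In KO mice it was at 360 and 417 CPM when young and 351 and 263 CPM when old. The groups did not overlap in either genotype. The log2 change (old minus young) was -0.43 in WT (SE 0.12, adjusted p = 0.0102) and -0.31 in KO (SE 0.11, adjusted p = 0.107). The eYFP-rich cluster 7 made up 44.9 and 49.6% of these cells in the WT young mice and 21.3 and 9.38% in the WT old mice, and without it the WT change was 0.03 (adjusted p = 0.95). Inside cluster 7 the WT old library had more Igfbp5 than the WT young library, as given above. The WT call was also lost without WT young mouse 2 (-0.28, adjusted p = 0.32) or WT old mouse 2 (-0.32, adjusted p = 0.17), and without KO old mouse 1 the KO change passed (-0.51, adjusted p = 0.0156).

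In neuroblast-like cells Igfbp5 moved the other way and rose with age. It was at 80.8 and 70.9 CPM in young and 290 and 178 CPM in old WT mice. In KO mice it was at 98.9 and 164 CPM when young and 268 and 214 CPM when old. The log2 change with age was 1.67 in WT (SE 0.23, adjusted p = 6.68e-09) and 0.83 in KO (SE 0.19, adjusted p = 0.0091), and KO young mice were above WT young mice by 0.80 (SE 0.22, adjusted p = 0.0264). The difference between the age changes in WT and KO was -0.84 (SE 0.30, adjusted p = 0.22). The near-empty Igfbp5 level, given above, was likewise lowest in WT young, next in KO young and higher in both old libraries. Summed over 9 OEG marker genes, the same cells had 48.8 to 49.6, 143 to 189, 111 to 139 and 147 to 171 CPM. Of those 9 markers 4 could be tested, Npy and Apod rose with age in WT, and Sox10 and Fibin had no UMI. The summed 9 astroglia markers ran from 266 to 282 CPM in WT young from 310 to 447 in WT old, from 438 to 463 in KO young and from 327 to 406 CPM in KO old. With age in WT none of the 5 tested was called. With genotype in young mice 1 of these 5 and 1 of the 4 OEG markers tested rose, with median log2 differences of 1.18 and 1.46 over the tested markers. Neuroblast-like cells with a hashtag were 10.6% of the class, and over all cells of the class the levels were 97.0, 166, 186 and 199 CPM. The rises with age were thus smaller over all cells than in the cells with a hashtag. The part of free or neighbouring RNA in the rise was not tested. The part of the mix of neuroblast-like clusters, which differed in Igfbp5 as given above, was not tested either. Without WT old mouse 1 the WT change was 1.16 (adjusted p = 0.051). Without KO young mouse 1 the KO change was 0.53 (adjusted p = 0.46), and without KO old mouse 1 it was 0.67 (adjusted p = 0.20). With only the KO mice fitted it was 0.82 (adjusted p = 0.072), and DESeq2 gave 0.85 (adjusted p = 0.32). The genotype call was lost without WT young mouse 1 (0.91, adjusted p = 0.13), WT young mouse 2 (0.69, adjusted p = 0.34) or KO young mouse 2 (0.38, adjusted p = 0.72), at Leiden resolution 2 (0.71, adjusted p = 0.21) and with DESeq2 (0.79, adjusted p = 0.41).

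The remaining calls with age were falls of Igfbpl1 in cells that hold little of it. It passed the filter on low counts there only through the young mice, since no old mouse had more than 4 UMIs, so that a gene kept in this way had to differ and these calls are a description. In vSVZ astroglia-like cells Igfbpl1 had 26 and 34 UMIs in the WT young and 1 and 4 in the WT old mice. In KO mice it had 18 and 21 UMIs when young and 2 and 1 when old. WT young over WT old gave 60 against 5 UMIs, a ratio of levels of 17.3 (95% counting interval 7.03 to 55.4). KO young over KO old gave 39 against 3 UMIs, a ratio of 13.95 (4.44 to 70.6). In RoB astroglia-like cells of WT mice the ratio was 23.1 (19 against 2 UMIs, 5.56 to 204). In OEG-like cells it was 42.5 in WT (33 against 4 UMIs, 15.1 to 165) and 32.7 in KO (54 against 3 UMIs, 10.6 to 163). These ratios and intervals pool the UMIs of both mice of a group and leave out variation between mice. The near-empty level of Igfbpl1 fell in the same direction, from 747 in WT young to 85.2 CPM in WT old and from 433 in KO young to 127 CPM in KO old.

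The class levels of Igfbpl1 were 1.21 to 3.99% of the near-empty level in astroglia-like cells and 0.627 to 6.54% in OEG-like cells. Other neuroblast markers moved with it. Of 10 marker genes of neuroblasts, 9 could be tested in vSVZ astroglia-like cells, and 7 fell with age in WT and 7 in KO. In OEG-like cells 8 of 9 fell in WT and 3 of 9 in KO, and none rose in either class. Their sum in OEG-like cells was 93.0 and 837 CPM in the 2 WT young mice, and then 19.1 to 21.4, 106 to 388 and 22.6 to 27.8 CPM. In vSVZ astroglia-like cells it was 350 to 386, 152 to 174, 298 to 300 and 134 to 153 CPM. In RoB astroglia-like cells it was 229 to 397, 123 to 142, 289 to 327 and 105 to 140 CPM, and 1 of the 4 markers tested fell with age in WT. The part of free RNA in these calls was not tested. In OEG-like cells 30 of the 33 WT young Igfbpl1 UMIs came from mouse 2, and without that mouse the WT call was lost (log2 change -2.94, adjusted p = 0.45). It was also lost without WT old mouse 1 (adjusted p = 0.087) or 2 (adjusted p = 0.10). The KO call was lost without KO young mouse 1 (adjusted p = 0.48), without KO old mouse 1 (adjusted p = 0.052), without either WT old mouse (adjusted p = 0.070 and 0.078), and in cluster 5 alone (adjusted p = 0.13). The RoB astroglia-like call was lost without any of the 4 WT mice (adjusted p 0.11 to 0.28).

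**Figure D5:**
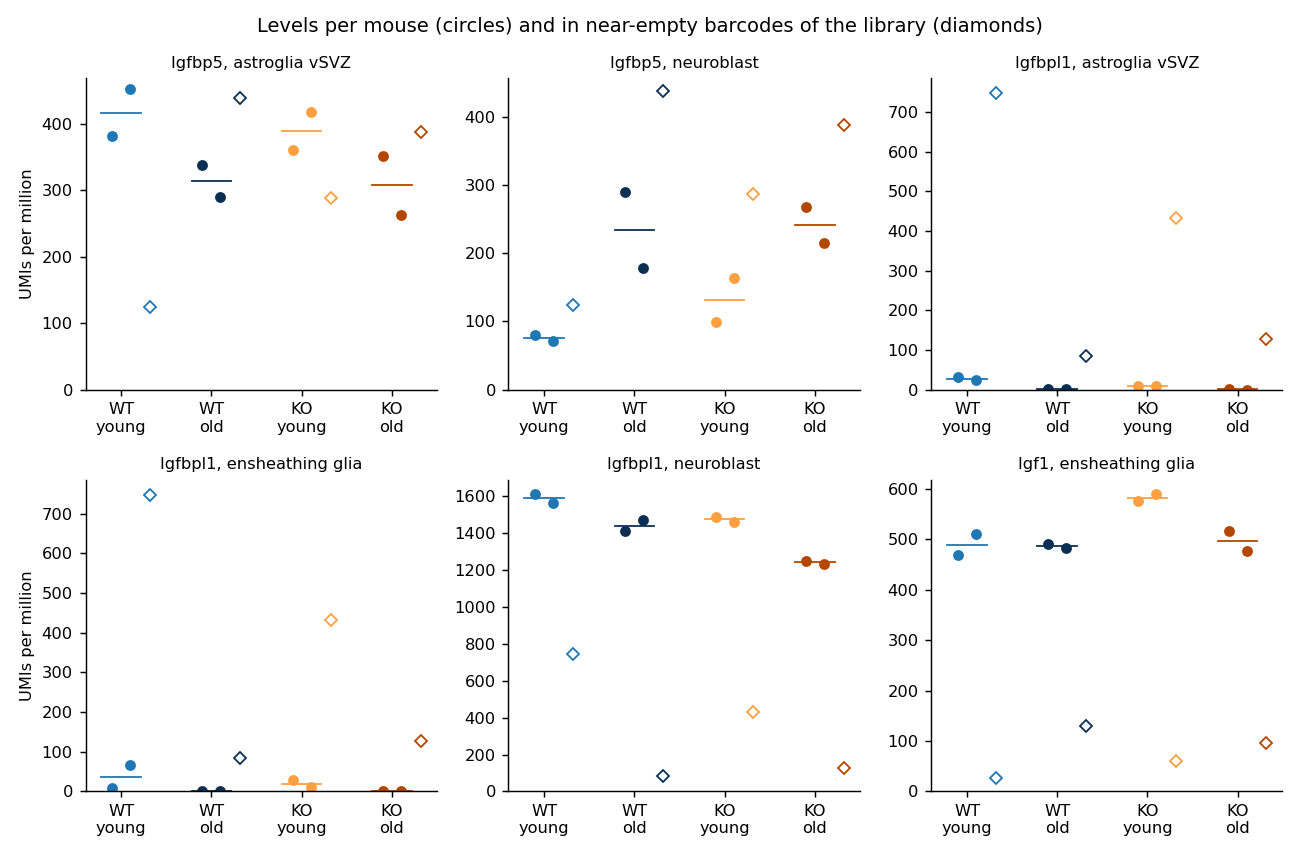
CPM per mouse (circles, with the mean of 2 mice as a line) in the 4 groups, and the level in near-empty barcodes of the same library (diamonds). Igfbp5 in neuroblast-like cells and Igfbpl1 in astroglia-like and ensheathing glia-like cells had the same order of young and old groups as the near-empty level, whereas Igfbp5 in vSVZ astroglia-like cells had the opposite order.

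In neuroblast-like and OEG-like cells, which ranked first or second for the genes below, none of the following differences passed. Endothelial-like cells, which led for Igf1r and Igfbp7, could not be tested for age or genotype. Igfbpl1 in neuroblast-like cells was at 1612 and 1566 CPM in young and 1411 and 1473 CPM in old WT mice, and at 1490 and 1461 CPM in young and 1252 and 1232 CPM in old KO mice. The old mice were below the young mice without overlap in both genotypes, by a log2 change of -0.18 in WT (SE 0.08, adjusted p = 0.24) and -0.26 in KO (SE 0.08, adjusted p = 0.13). Igf1r in neuroblast-like cells was at 308 and 248 CPM in young and 351 and 395 CPM in old WT mice, and at 348 and 311 CPM in young and 355 and 381 CPM in old KO mice. Its log2 change with age in WT was 0.36 (SE 0.15, adjusted p = 0.20). Igf1 in OEG-like cells was at 470 and 510 CPM in young and 491 and 482 CPM in old WT mice, and at 577 and 590 CPM in young and 518 and 477 CPM in old KO mice. KO young mice lay above WT young mice without overlap, by 0.28 on the log2 scale (SE 0.11, adjusted p = 0.36). Igfbp5 in OEG-like cells ranged from 865 CPM in WT young mouse 2 to 1477 CPM in KO old mouse 1, and was higher in KO than in WT young mice by 0.35 (SE 0.12, adjusted p = 0.26). Igfbp4 ran from 335 to 517 CPM and Igfbp7 from 336 to 565 CPM over the 8 mice, with no call.

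Igfbp2 in RoB astroglia-like cells, at the levels given per mouse above, had a log2 change of -0.62 with age in WT (SE 0.27, adjusted p = 0.28) and of -0.72 between KO young and WT young mice (SE 0.29, adjusted p = 0.39). KO young mouse 2, at 128 CPM from 40 cells, had 3 cells of cluster 16. Without KO young mouse 1, which leaves that mouse alone in its group and assumes that it varies like the others, the genotype difference was -2.26 (adjusted p = 1.73e-06) and the interaction of age and genotype 1.91 (adjusted p = 0.00294). The fall with age in WT passed under 7 alternatives, the largest change being -1.19 without WT old mouse 1. They are not all separate checks: at least 50 cells per mouse and leaving out KO young mouse 2 gave the same fit (-0.62). With age in KO, Igfbp2 in these cells had a change of 1.29 without KO young mouse 1, in the other direction. In activated NSC-like cells Igfbp5 was at 610 and 229 CPM in KO young and 660 and 867 CPM in KO old, a log2 change of 0.87 (SE 0.30, adjusted p = 0.25). It passed without KO young mouse 1 (1.75, adjusted p = 0.000121). The member tests that were not called had adjusted p from 0.19 to 0.96 for age in WT and from 0.060 to 1.00 for age in KO.

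Between KO and WT young mice 2 of 23 tests of a member passed, for higher Igfbp5 in neuroblast-like cells and lower Igfbpl1 in vSVZ astroglia-like cells. These groups also differ in reaction, age at tamoxifen and chase, which cannot be told apart from genotype. Igfbpl1 went from 60 UMIs in WT young to 39 UMIs in KO young, beside near-empty levels of 747 and 433 CPM. The ratio of levels over pooled UMIs was 2.79 (95% counting interval 1.83 to 4.29). In edgeR on the sums per mouse, the Igfbpl1 call had a log2 difference of -1.48 (SE 0.35, adjusted p = 0.0141). It was lost without any of the 4 young mice (adjusted p 0.12 to 0.15), with doublets kept (-0.95, adjusted p = 0.24), without cluster 7 (-0.53, adjusted p = 0.80) and at Leiden resolution 0.5 (-0.46, adjusted p = 0.83). The share of all genes called was 2.9% in vSVZ and 0.377% in RoB astroglia-like cells. It was 1.92% for neuroblast-like, 0.149% for activated NSC-like, 0.638% for microglia-like and 0.575% for OEG-like cells. In old mice, edgeR called 0 of 17 tests, with 2 at an unadjusted p below 0.05, and DESeq2 also called 0. The old groups also differ in reaction and age (80 weeks in WT, 92 to 105 weeks in KO), which cannot be told apart from genotype. Young and old WT mice further differ in chase (6 and 9 weeks), so the age changes compared in the interaction are not alike in design. The shares of all genes were 0.231%, 0.0418%, 0.15% and 0.387% in vSVZ astroglia-like, RoB astroglia-like, neuroblast-like and OEG-like cells. For the interaction of age and genotype, edgeR called 0 of 17, with 2 at an unadjusted p below 0.05, and DESeq2 called 0, beside 1.32%, 0.0558%, 0.586% and 0% of all genes.

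The other genes of the pathway numbered 43, from ligands to imprinted neighbours. Up to 27 could be tested in a class. In vSVZ astroglia-like cells, Ide, the insulin-degrading enzyme, rose with age by 0.62 in WT (SE 0.18, adjusted p = 0.015) and 0.55 in KO (SE 0.15, adjusted p = 0.0229). Htra3, a secreted protease with a binding protein-like domain, rose by 2.98 in WT (SE 0.72, adjusted p = 0.00394) and 1.56 in KO (SE 0.45, adjusted p = 0.0372). Grb10, an adaptor that restrains the receptor, had a change of -3.18 in WT (SE 0.97, adjusted p = 0.0234). In KO mice its relative Grb14 had -1.84 (SE 0.43, adjusted p = 0.00748) and Htra1 rose by 0.38 (SE 0.09, adjusted p = 0.0117). Htra3, Grb10 and Grb14 were highest in other classes, with medians of 33.4 CPM in OPC-like, 67.0 in endothelial-like and 764 in oligodendrocyte-like cells. Whether they passed the filter on low counts only through the age group where they were higher was not tested, so their changes are a description. With genotype in young mice Foxo3, a transcription factor restrained by Akt, had a log2 difference of -0.62 (SE 0.18, adjusted p = 0.0464). That makes 2 rises and 1 fall of 27 with age in WT, 3 and 1 with age in KO, and 0 and 1 with genotype in young mice, beside 15.8%, 4.7% and 2.9% of all genes called in the same class, with median changes over the list of 0.07, -0.04 and 0.05 and medians over all genes of 0.03, 0.00 and 0.00. No gene of the list passed in any other class and group comparison.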

How the data were processed

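UMIs were measured with 10x 3′ chemistry in 4 expression libraries, with 4 hashtag libraries; 1 sample without a group label was not used. Per the authors' methods, index hops were filtered and counts made with kallisto and bustools (GRCm38 per the labels); the deposited counts are raw UMI counts per barcode before any selection of cells, and hashtag counts are likewise raw. Kept were barcodes of 100 to 6000 genes and 1000 to 20000 UMIs in which mitochondrial UMIs stayed under 10%. Doublets were removed with Scrublet (scanpy 1.11.5), hashtags called with a mixture model and cells clustered with leidenalg 0.10.2 at resolution 1, leaving out IGF pathway, interferon and mitochondrial genes and transgenes. Hashtag counts were low, so 5760 of 18051 cells were called. Sums per mouse and class were tested with edgeR 4.0.16 (TMM, filterByExpr, quasi-likelihood, 1 fit per class); standard errors are the change divided by the root of F. Tests were tried on simulated data. Intervals cover counting error only. Symbols came from GENCODE vM21 by identifier. Named were all members tested, up to 4 called pathway genes per comparison and the 3 most similar genes. The wide near-empty window and the fits without single OEG-like clusters or the Igfbp2-richest cluster were added after seeing the data. Members and lists were chosen with earlier results of these data known. RNA level per cell and number of expressing cells within a class were not separated.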

Additional observations from a re-analysis of the deposited data

Results flagged for a closer look

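Igfbp2 in vSVZ astroglia-like cells moved with age in opposite directions in the genotypes. Both WT old mice (10.9 and 4.69 CPM) lay above both WT young mice (3.70 and 1.4), and both KO old mice (1.25 and 8.72) below both KO young mice (11.4 and 9.03). The difference between the age changes was -2.68 on the log2 scale (edgeR, adjusted p = 0.20) and did not pass, except without KO old mouse 2 (-4.56, adjusted p = 0.0328). The sums rest on 2 to 21 UMIs per mouse, and the near-empty level was 44.9, 66.5, 31.7 and 21.4 CPM in the order used above.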

How the results depend on the processing

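Of the call counts per comparison, 103 stayed within 1.5 times the reported count over the alternatives, and 20 did not. For age in WT (5), DESeq2 called 1, a hashtag posterior of at least 0.9 left 3, and leaving out each mouse gave 2 to 6. For age in KO (3), DESeq2 called 1 and no filter on low counts 6. For genotype in young mice (2), DESeq2 called 0 and no filter 5; the posterior of 0.9, Leiden resolutions 0.5 and 2, kept doublets and leaving out the eYFP-rich cluster 7 each called 1, and leaving out each mouse 0 to 2. For genotype in old mice (0), kept doublets called 1, Igfbp2 in OEG-like cells. For the interaction (0), leaving out each mouse gave 0 to 1. DESeq2 gave Igfbp5 in neuroblast-like cells for age in WT and 5 of the Igfbpl1 results no adjusted p. The fall of Igfbp5 in vSVZ astroglia-like cells of WT mice turned to 0.0282 at Leiden resolution 0.5 and 0.0259 without cluster 7. These are not separate checks: at resolution 0.5 an eYFP-rich cluster of 1420 cells with Thbs4 and Ecel1 among its leading genes stayed unnamed and so left the astroglia-like class.

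No paired analysis was possible because the same hashtag number marks different mice in different groups. Between tissues of a mouse the block is part of the design, and without the replicate block all 3 members were still called (3).

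Subtracting the near-empty level (5 to under 100, then 5 to under 500 UMIs, the latter chosen after seeing the data) moved the median level in the leading class to -2.02 and -2.13 CPM for Igf2, 309 and 322 for Igfbp4, 721 and 776 for Igfbp5, and 1036 and 1099 for Igfbpl1. A mean over cells gave 1748 for Igf1r. The other 53 levels moved by less than the spread between libraries. Counts over all genes moved by over 1.5 times in every class and comparison under at least 1 alternative, from 403 to 1694 (reported 1643) for age in WT in vSVZ astroglia-like, 99 to 253 (241) in neuroblast-like and 0 to 430 (204) in OEG-like cells, and from 621 to 1309 (1033) between tissues.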
